A study of Mus musculus with 4 samples.

Results

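The nuclear genes of the mitochondrial respiratory chain were followed through LIF withdrawal in mouse embryonic stem (ES) cells. They were the protein-coding genes whose symbol began with Nduf, Uqcr or Atp5, the genes Sdha to Sdhd, Cyc1 and Cycs, and the Cox4 to Cox8 genes of cytochrome c oxidase. This choice by name gave 95 of the 47633 gene rows in the deposited expression table. By complex they were 38 genes of complex I, 8 assembly factors of complex I (Ndufaf genes), 4 genes of complex II, 9 of complex III, cytochrome c, 18 of complex IV and 17 of complex V. No measured value entered the choice.

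The 4 libraries were made from total RNA of cells of mouse strain 129S2/SvPas. ES cells kept with leukaemia inhibitory factor (LIF), which keeps them undifferentiated, gave 2 libraries (ES 1 and ES 2), and cells deprived of LIF for 2 days gave 1 library, called the day 2 library here. The remaining library came after 5 days of deprivation and carries the label embryoid body, an aggregate of differentiating cells; it is called the day 5 library. Where 4 values follow each other they stand in the order ES 1, ES 2, day 2 and day 5. The ES cells were kept on mitomycin C-treated embryonic fibroblasts of C57/BL6 mice. The labels give the cell type as 21-24 in all 4 libraries, and they do not say whether the ES libraries came from separate cultures. A p-value therefore measures only the spread between these ES libraries, which may be technical.

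The respiratory chain carries electrons from NADH (complex I) and succinate (complex II) through ubiquinone, complex III, cytochrome c and complex IV to oxygen. Complexes I, III and IV pump protons across the inner mitochondrial membrane, and complex V (ATP synthase) uses the proton gradient to make ATP. Some subunits of complexes I, III, IV and V are encoded in mitochondrial DNA, while all others come from nuclear genes whose products are imported. ES cells are known for a strongly glycolytic metabolism beside a working respiratory chain.

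Levels are FPKM (fragments per kilobase of transcript, scaled to the library's total), a unit per gene length, so levels of different genes can be set side by side. The depth implied by the smallest steps of the values was 31.8 M fragments in ES 1, 26.7 in ES 2, 18.3 at day 2 and 26.7 in the day 5 library. In a 1 kb gene, 3 fragments then correspond to between 0.0944 and 0.164 FPKM, a limit that covers counting error only. The 10 most abundant genes held between 9.8% and 17.4% of the FPKM sum in the ES and day 5 libraries and 44.7% in the day 2 library. This is a share of FPKM and not of fragments. The highest value at day 2 was 326022 FPKM over all tested genes and 7990 FPKM over protein-coding ones. The tested protein-coding genes summed at day 2 to 0.99 of their ES mean. Median-of-ratios scaling factors lay between 0.977 and 1.02. In the label check, Pou5f1 and Nanog, factors of pluripotency, were at 461 and 156 FPKM in the day 5 library, against 489 and 113 in ES 1, and 6 of 8 pluripotency markers were above both ES libraries there. The 12 fibroblast markers summed to 51.2 and 50.2 FPKM in the ES libraries, 53.2 in the day 5 library and 183 in the day 2 library.

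The chain was expressed at high level in all 4 libraries. The 95 genes summed to 9717 FPKM in ES 1, 9747 in ES 2, 9971 at day 2 and 10028 in the day 5 library. Atp5b alone gave 1410, 1431, 2643 and 1634 FPKM of these sums, and without it the day 2 sum would be the lowest of the 4. The median of the 95 genes was 59.0, 57.9, 54.1 and 57.2 FPKM in the same order. Over all tested protein-coding genes the median was 11.1 FPKM in ES 1. Of the 95 genes, 90 reached 1 FPKM in at least 1 library and could be tested. The other 5 were Cox4i2, Cox6a2, Cox8b, Cox8c and Ndufa4l2, which are isoform genes with restricted expression. Median levels in ES 1 were 140.1 FPKM for complex V, 113 for complex III, 75.5 for complex II, 68.3 for complex IV, 46.7 for complex I and 9.5 for its assembly factors. In the plot of levels by complex the order was the same in each library except that complex IV stood above complex II at day 5.

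**Figure D1:**
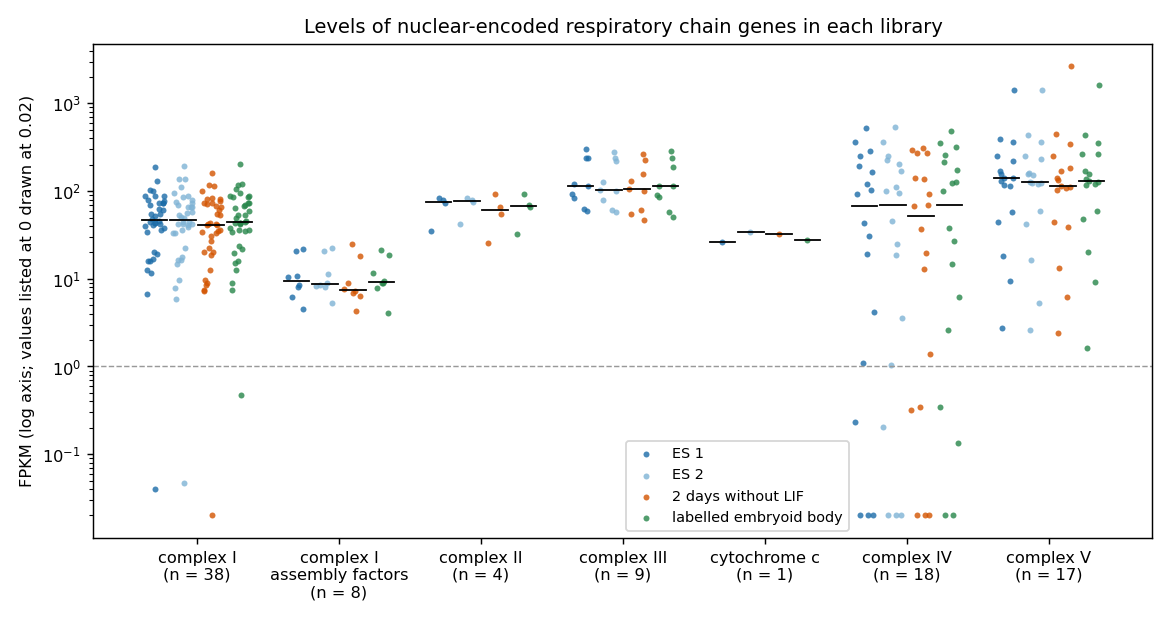
Level of each of the 95 genes (FPKM, log axis) in the 4 libraries, by complex; points are genes and black bars are medians. In ES 1 medians run from 9.5 FPKM for the assembly factors to 140.1 FPKM for complex V, and genes drawn at 0.02 are listed at 0.

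ES 1 and ES 2 gave close values for these genes. The median absolute difference between them was 0.10 on the log2(FPKM + 1) scale, and none of the 90 tested genes differed by 2-fold or more, against 227 of 12359 tested protein-coding genes. The widest gaps were those of Atp5k, a small membrane subunit of ATP synthase, at 9.38 and 5.34 FPKM, and of Ndufs5, an accessory subunit of complex I, at 12.7 and 7.85 FPKM.

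Promoter windows are shown for genes on which the results below turn. Each window runs from upstream of the RefSeq transcript start into the first exon, is 300 bases long, is read 5′ to 3′ on the gene's strand, and comes from RefSeq on GRCm38.p6. Such windows were at hand for 75 of the 95 genes. Capitals mark matches, on either strand, to letters typical of 4 factors: GCGCA, any base and GCGC for NRF1, CCGGAAG for ETS factors such as GABP, AANATGGC for YY1, and ACTACA, any base and TTCCC for ZNF143. The ZNF143 letters were added after the windows and the changes had been seen. A match is a description of the sequence and not a bound site.

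The first pair shows a housekeeping isoform and its muscle isoform, Cox8a at chr19:7217567-7217866 (minus strand) and Cox8b at chr7:140900397-140900696 (minus strand). Cox8a was among the most abundant genes here and Cox8b was listed at 0 in every library.
Cox8a: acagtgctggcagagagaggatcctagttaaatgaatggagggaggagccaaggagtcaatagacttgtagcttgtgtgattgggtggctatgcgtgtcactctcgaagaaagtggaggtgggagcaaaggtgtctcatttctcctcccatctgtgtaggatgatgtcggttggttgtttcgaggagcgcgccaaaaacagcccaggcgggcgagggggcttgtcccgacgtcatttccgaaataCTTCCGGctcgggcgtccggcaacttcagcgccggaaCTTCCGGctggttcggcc
Cox8b: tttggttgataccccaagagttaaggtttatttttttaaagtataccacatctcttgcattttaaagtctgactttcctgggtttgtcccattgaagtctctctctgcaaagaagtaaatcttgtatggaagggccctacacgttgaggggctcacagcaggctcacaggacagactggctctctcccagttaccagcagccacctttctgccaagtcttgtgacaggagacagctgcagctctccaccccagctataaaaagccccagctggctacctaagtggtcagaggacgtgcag
The second set shows genes that were lower in the day 2 library in complexes I, III and IV: Ndufb4 at chr16:37654319-37654618 (minus strand), Cox7b at chrX:106015450-106015749 (plus strand), Cox7c at chr13:86046746-86047045 (minus strand) and Uqcr10 at chr11:4704295-4704594 (minus strand).
Ndufb4: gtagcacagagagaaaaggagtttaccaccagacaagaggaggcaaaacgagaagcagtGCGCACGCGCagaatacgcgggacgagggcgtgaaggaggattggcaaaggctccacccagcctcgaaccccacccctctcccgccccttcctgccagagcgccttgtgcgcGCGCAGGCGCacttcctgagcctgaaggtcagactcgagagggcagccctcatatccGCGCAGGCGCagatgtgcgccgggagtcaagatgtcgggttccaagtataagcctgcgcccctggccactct
Cox7b: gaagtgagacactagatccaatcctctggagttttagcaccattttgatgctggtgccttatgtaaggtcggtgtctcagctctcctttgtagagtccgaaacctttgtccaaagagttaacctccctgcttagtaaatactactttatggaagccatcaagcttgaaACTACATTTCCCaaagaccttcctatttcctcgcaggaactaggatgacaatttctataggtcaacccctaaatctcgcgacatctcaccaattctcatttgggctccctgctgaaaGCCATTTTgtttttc
Cox7c: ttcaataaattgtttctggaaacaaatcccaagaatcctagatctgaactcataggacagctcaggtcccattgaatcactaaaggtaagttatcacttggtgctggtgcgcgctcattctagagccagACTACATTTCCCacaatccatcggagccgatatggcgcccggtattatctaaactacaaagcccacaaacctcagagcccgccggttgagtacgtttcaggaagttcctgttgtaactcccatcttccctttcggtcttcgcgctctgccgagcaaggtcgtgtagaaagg
Uqcr10: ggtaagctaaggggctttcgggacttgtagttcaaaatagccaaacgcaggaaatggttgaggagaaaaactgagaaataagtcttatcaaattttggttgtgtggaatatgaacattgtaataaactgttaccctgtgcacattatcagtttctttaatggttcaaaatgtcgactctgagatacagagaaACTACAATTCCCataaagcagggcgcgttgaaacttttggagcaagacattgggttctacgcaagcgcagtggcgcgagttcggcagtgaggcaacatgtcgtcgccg
The last is Atp5b at chr10:128083057-128083356 (plus strand), the most abundant gene of the chain and the one with the largest difference upward in the day 2 library.
Atp5b: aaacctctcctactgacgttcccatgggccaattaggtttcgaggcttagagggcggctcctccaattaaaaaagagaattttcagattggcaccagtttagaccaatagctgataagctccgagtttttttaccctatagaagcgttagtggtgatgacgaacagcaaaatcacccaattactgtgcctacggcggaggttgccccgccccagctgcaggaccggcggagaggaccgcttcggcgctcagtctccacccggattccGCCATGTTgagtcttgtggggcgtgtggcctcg

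Cox8a held 2 matches to the ETS letters and Ndufb4 held 3 to the NRF1 letters, whereas Cox8b held no match to the 4 motifs. Abundant genes such as Cox5a and Ndufa4 held no match either. Atp5b and Cox7b each held a YY1 match. The ZNF143 letters stood in the windows of Cox7b, Cox7c and Uqcr10 and, among the other respiratory genes, in that of Atp5d alone. NRF1 letters were found for 19 of 75 genes (25.3%), against 5.19% of the 27025 genes with a window. The share was 24% against 9.93% for the ETS letters, 24% against 6.96% for YY1 and 5.33% against 1.09% for ZNF143. The CCAAT letters, searched in the same way, were found for 45.3% against 41.1%. Matches of different factors shared a base in 0 of the 80 windows of these genes, and no test of these shares was made. Median levels of tested genes in ES cells, with and without the letters, were 54.4 and 58.9 FPKM for NRF1. They were 76.3 and 52.7 FPKM for ETS and 51.3 and 58.7 FPKM for YY1. Genes with and without NRF1 letters had similar median differences in the day 2 library, at -0.21 and -0.25 on the log2 scale. For the ZNF143 letters, which were chosen with these values in view, the medians were -0.81 over 4 genes and -0.23 over 70. Because of that choice, neither these medians nor the share of ZNF143 letters above is independent support. Atp5d, which holds the letters, went the other way at day 2, at 129, 126, 135 and 118 FPKM.

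The first comparison asked how the chain differed after 2 days of LIF deprivation. Most genes were somewhat lower than in ES cells, and a few, led by Atp5b, were higher. Of the 90 tested genes 58 were below both ES libraries (64.4%), against 36.6% of all 15676 tested genes and 39.7% of the protein-coding ones. Another 21 were above both (23.3%), against 48.4% and 47.7%. Their median difference was -0.21 on the log2(FPKM + 1) scale, beside 0.04 for all tested genes and 0.03 for protein-coding genes. At least 2-fold lower than both ES libraries were 3 genes, Ndufb2, Cox7a1 and Cox7b2, against 4.09% of all tested genes and 1.66% of protein-coding ones. None was 2-fold higher, against 12.4% and 6.72%.

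A gene was called at a limma adjusted p (Benjamini-Hochberg over all tested genes) under 0.05 and a log2 difference of at least 1 in size. By this rule 1 of the 90 genes was called in the day 2 library, Ndufb2, which was lower. Over all tested genes 7.67% were called, and 0.357% were called lower. Of the 12359 protein-coding genes in this fit, 342 were called higher and 33 lower. A further 5 genes were lower at an adjusted p under 0.05 with a log2 difference of less than 1 in size (Ndufa1, Ndufb4, Ndufb11, Cox7b and Cox7b2), so 6 of 90 passed on p alone, all lower, against 1.15% of all tested genes lower and 8.87% higher. At an unadjusted p under 0.05 there were 29 lower and 6 higher genes, against 13.1% and 24.1% of all tested genes. The model has a single residual degree of freedom, from the ES pair, and each derived group is 1 library. When protein-coding genes alone were fitted, 20 genes were lower and 3 higher (Atp5b, Atp5j and Ndufc2) at a limma adjusted p under 0.05, against 5.4% lower and 11.7% higher over protein-coding genes. Called there were Ndufb2 and Cox7a1, both lower, against 0.574% called lower and 3.97% called higher. A fit of strand-clear genes (at least 1000 nt of exons and no gene on the opposite strand) held 45 of the 90 genes. It gave 9 lower genes and 1 higher, Atp5b, at a limma adjusted p under 0.05, against 9.97% and 13.3%, and called none of them, against 0.627% lower and 2.44% higher.

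In complex I, the 4 genes that passed on p were all accessory subunits, as are 30 of its 37 tested genes. Ndufb2, an accessory subunit of the membrane arm (chr6:39592574-39603382, plus strand), was at 47.9 and 50.2 FPKM in the ES libraries, 22.7 at day 2 and 53.2 in the day 5 library. The day 2 library stood apart and the other 3 were close. Ndufb2 fell by 1.08 on the log2 scale (SE 0.05, limma adjusted p = 0.0407), to 0.462 of the ES mean of 49.0 ± 1.65 FPKM (SD, n = 2). Exons of Braf and Gm16272 on the opposite strand cover 5.37% of its exon length, and the strand setting of the counting is not given in the sources used here.

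Ndufb11 and Ndufa1, membrane-arm subunits encoded on the X chromosome, showed the same order of libraries. Ndufb11 was at 33.9 and 33.7 FPKM in ES cells, 20.1 at day 2 and 34.5 in the day 5 library (log2 difference in the day 2 library -0.72, SE 0.02, limma adjusted p = 0.0267). Ndufa1 was at 42.8, 41.7, 27.2 and 43.7 FPKM (-0.62, limma adjusted p = 0.0447). Ndufb4, whose promoter window held 3 NRF1 matches, was at 15.8, 16.2, 8.4 and 15.2 FPKM (-0.86, limma adjusted p = 0.0411). In these genes the ES pair differed by less than 2 FPKM and the day 2 library lay below both.

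Over complex I, 25 of 37 tested genes were below both ES libraries at day 2 and 8 above. The 30 accessory genes had a median log2 difference of -0.25 and the 7 core genes, which carry the flavin and iron-sulfur centres, one of -0.05, with a range from -0.19 to 0.14. Core genes differed little: Ndufs1, the largest subunit, was at 69.4, 69.2, 70.4 and 64.9 FPKM. The 2 most abundant complex I genes, Ndufa7 and Ndufs6 of the matrix arm, were at 162 and 114 FPKM in the day 2 library, against ES means of 192 and 134 FPKM. The largest differences upward were those of Ndufc2, a membrane-arm subunit, at 52.4, 49.5, 72.5 and 43.2 FPKM (log2 difference 0.50, limma adjusted p = 0.0838), and Ndufa10 at 60.6, 65.2, 77.7 and 59.5 FPKM (0.30, limma adjusted p = 0.150). Neither passed the test, and in both the day 2 library was the highest of the 4.

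Among the 8 Ndufaf assembly factors, which build complex I but are not part of it, 5 were below both ES libraries and 3 above. Ndufaf3, which acts early in assembly, was at 8.6, 11.2, 4.32 and 9.36 FPKM. Its log2 difference of -1.02 did not pass (limma adjusted p = 0.146), and the ES pair was wide. Ndufaf1 was at 21.0 and 20.9 FPKM in ES cells and 24.6 in the day 2 library, and Ndufaf7, a methyltransferase acting on a core subunit, at 4.53, 5.26 and 6.34 FPKM. Ndufaf1 and Ndufaf4, the most abundant of the group, lay on opposite sides of ES cells, with Ndufaf4 at 22.1, 22.2, 18.4 and 18.9 FPKM.

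In complex II, which links the chain to the TCA cycle, Sdha was higher and the other 3 genes were lower than both ES libraries in the day 2 library. Sdha, the flavoprotein, was at 83.6, 82.4, 93.3 and 93.4 FPKM. Sdhc, a membrane anchor, was at 34.8, 42.3, 25.7 and 32.2 FPKM, and Sdhd, the other anchor, at 72.6, 75.6, 55.6 and 65.2 FPKM. Sdhb, the iron-sulfur subunit, was at 78.3, 78.8, 65.9 and 70.2 FPKM. The ratio of Sdha to Sdhb was 1.07 and 1.05 in ES cells, 1.42 at day 2 and 1.33 in the day 5 library. None of the 4 genes had a limma adjusted p under 0.05 in the fit over all genes.

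Complex III held 3 genes below both ES libraries, 3 above and 3 between them at day 2. Uqcr10, a small subunit, was at 299 and 277 FPKM in ES cells, 157 at day 2 and 286 in the day 5 library (log2 difference -0.87, SE 0.08, limma adjusted p = 0.0719). Uqcr11, another small subunit, was at 84.1, 79.0, 54.9 and 85.9 FPKM. In both genes the day 2 library was below the other 3, although neither passed the test. Uqcrb, a small subunit near the quinone site, was instead highest there, at 236, 238, 267 and 240 FPKM. Among the catalytic and core subunits, Cyc1 (cytochrome c1) lay within the ES pair at day 2, at 62.4, 60.9, 61.7 and 57.2 FPKM. Uqcrc2 lay slightly above it, at 92.9, 103, 107 and 89.5 FPKM. Uqcrfs1, the Rieske iron-sulfur protein, was instead lower, at 59.0, 57.9, 46.7 and 51.3 FPKM (log2 difference at day 2 -0.32). Cycs, cytochrome c itself, lay within the ES pair in both derived libraries, at 26.4, 33.9, 32.6 and 27.5 FPKM.

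Complex IV was the complex with the lowest median difference in the day 2 library, -0.50, and 11 of its 14 tested genes were below both ES libraries. The FPKM sum of its 18 genes was 2189 in ES 1, 2148 in ES 2, 1732 at day 2 and 2246 in the day 5 library, which puts day 2 at 0.799 of the ES mean. Cox7b, a small subunit on the X chromosome (chrX:106015700-106022450, plus strand), was at 164, 168, 92.2 and 176 FPKM. The day 2 library lay below the other 3, with a log2 difference from ES cells of -0.84 (SE 0.03, limma adjusted p = 0.0339). Cox7c, the most abundant gene of complex IV, was at 519, 545, 311 and 481 FPKM (-0.77, limma adjusted p = 0.0682). Cox8a, the next in abundance, was at 365, 359, 295 and 357 FPKM. The genes that were not lower were Cox4i1 and Cox5a, subunits that join complex IV early in its assembly, at 249, 249, 272 and 262 FPKM and at 119, 111, 136 and 123 FPKM, and Cox6c, whose ES pair was wide (285 and 201 FPKM).

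Complex V held the largest difference upward of the 90 genes, that of Atp5b, the catalytic beta subunit of the F1 head (chr10:128083273-128090391, plus strand). Atp5b was at 1410 and 1431 FPKM in ES cells, 2643 at day 2 and 1634 in the day 5 library. The day 2 value was 1.86 times the ES mean of 1421 ± 14.8 FPKM (SD, n = 2), with a log2 difference of 0.90 (SE 0.13, limma adjusted p = 0.102). It passed on p alone when the fit was limited to protein-coding genes (limma adjusted p = 0.0410) or to the 7175 strand-clear genes (limma adjusted p = 0.0252). Atp5a1, the alpha subunit that pairs with it in the F1 head, was at 368, 366, 341 and 353 FPKM, so the ratio of Atp5b to Atp5a1 was 3.83, 3.91, 7.76 and 4.62. The small RNA genes Snord59a and Mir677 lie inside Atp5b and are listed at 0 in all libraries. Of the 17 genes of complex V, 11 were below both ES libraries and 4 above, among them Atp5b.

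Atp5j, a subunit of the stalk that holds the F1 head, was at 118, 123, 169 and 130 FPKM (log2 difference 0.48, limma adjusted p = 0.0748). Atp5f1, another stalk subunit, was at 155, 162, 104 and 137 FPKM (-0.60, limma adjusted p = 0.0695). The stalk genes lay on both sides of the ES pair. Atp5e, the smallest F1 subunit, was at 57.8, 60.1, 39.4 and 59.5 FPKM. Atp5h, next to Atp5b in abundance, was at 395, 437, 444 and 434 FPKM.

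**Figure D2:**
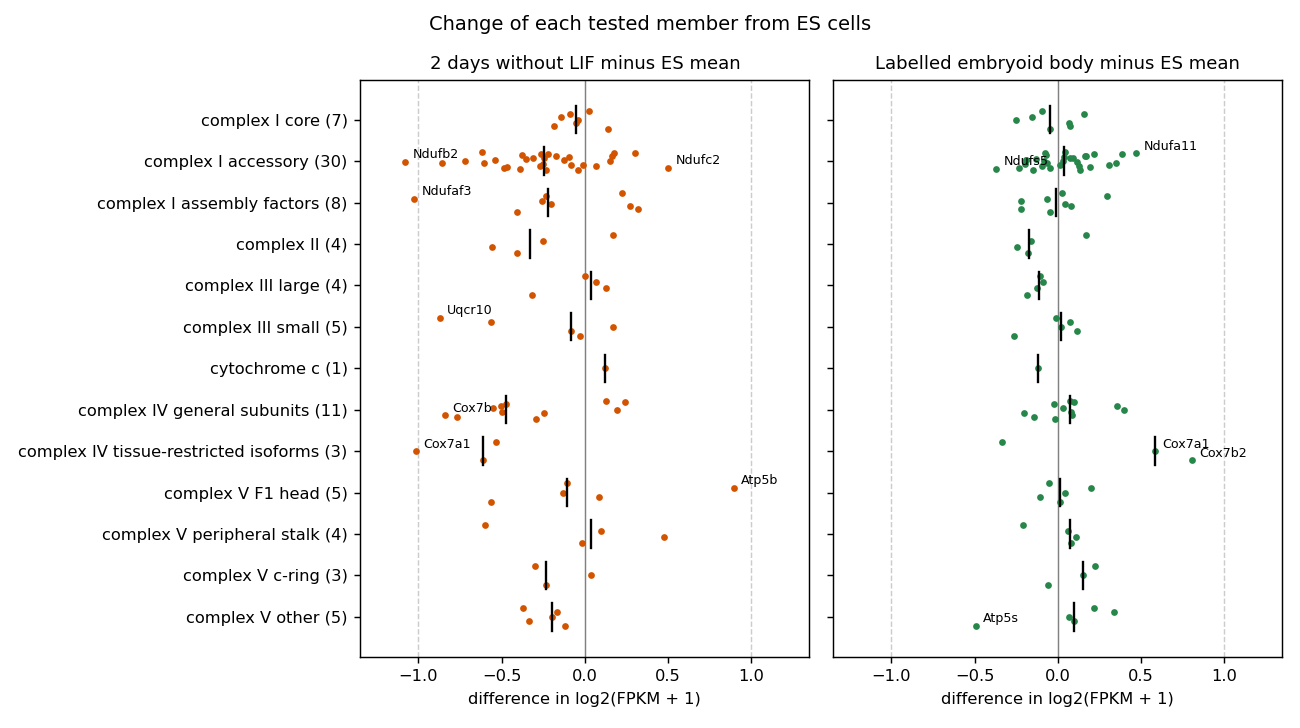
Difference from the ES mean on the log2(FPKM + 1) scale for each of the 90 tested genes, by functional group (number of genes in brackets), in the day 2 library (left) and in the day 5 library (right); points are genes, black bars are group medians and dashed lines mark 2-fold. At day 2 the general complex IV subunits have a median of -0.48 and Atp5b lies at 0.90, and in the day 5 library no gene lies beyond a log2 difference of 1.

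Genes with short coding sequences were the ones most below ES cells in the day 2 library, as the plot of differences against coding length shows. The 23 tested genes with coding sequences under 300 nt had a median log2 difference of -0.47, with 18 below both ES libraries and 1 above. The 41 genes from 300 nt to under 600 nt had a median of -0.24, and the 26 longer genes one of -0.04, with 13 below and 10 above. Over all tested protein-coding genes the medians in the same classes were -0.15, -0.02 and 0.04, and among those at 10 FPKM or more in ES cells -0.26, -0.10 and -0.02. Across the 90 genes, Spearman's rho between coding length and difference was 0.46, against 0.09 across 12359 protein-coding genes. With mRNA length it was 0.24 across the 90 genes. These points share the same 3 libraries, and genes are not independent replicates. At day 5 rho with coding length was -0.25 across the 90 genes, and the short class had a median of 0.08. The fibroblast markers were higher in the day 2 library: 9 of 10 tested markers were above both ES libraries, and Dcn, Postn, S100a4 and Col5a2 were called higher, against 7.32% of all tested genes. Dcn was at 0.695, 0.664, 6.68 and 11.1 FPKM, and Fap was listed at 0 in both ES libraries. The part of fibroblast RNA, of transcript length and of the abundant transcripts of that library in the differences of the respiratory genes was not tested. With median-of-ratios scaling the median difference of the 90 genes was -0.24. In bulk RNA, fewer cells of a type and less RNA per cell cannot be told apart.

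**Figure D3:**
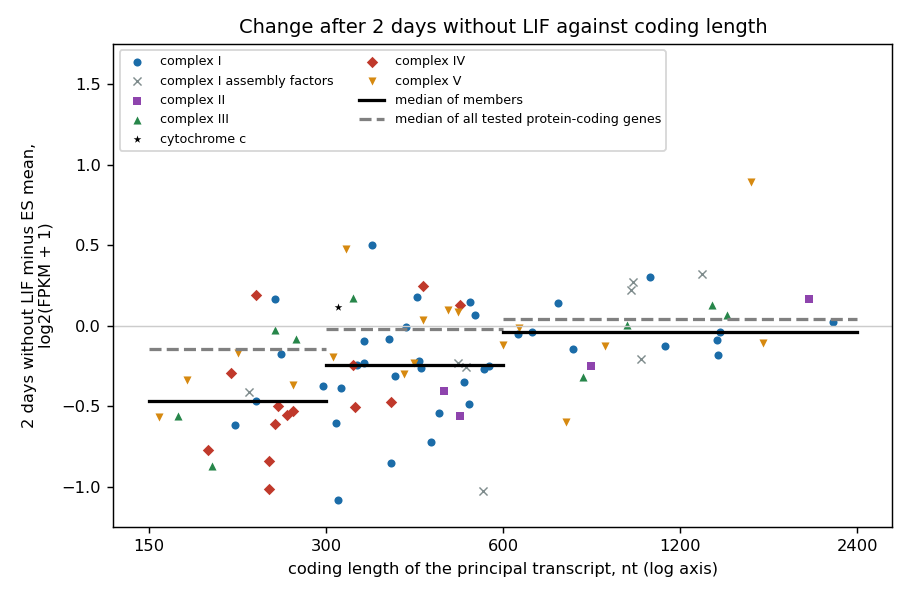
Difference in the day 2 library from the ES mean (log2(FPKM + 1) scale) against coding length of the principal transcript (nt, log axis) for the 90 tested genes; markers show complexes, black lines the class medians of these genes and dashed grey lines those of all tested protein-coding genes. The class medians rise from -0.47 to -0.04 for the respiratory genes and from -0.15 to 0.04 for all protein-coding genes.

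The second comparison asked how the chain differed in the day 5 library, labelled embryoid body. Its levels were close to those of ES cells. The limma test called 0 of 90 genes, against 0.396% of all tested genes. Of the 12359 protein-coding genes in this test, 6 were called higher and 0 lower. Of the 90 genes, 10 had an unadjusted p under 0.05, 3 higher and 7 lower, against 12.5% and 15.2% of all tested genes. The median difference was 0.03 on the log2 scale, beside -0.01 for all tested genes. Of the 90 genes 37 were above both ES libraries, against 37.6% of all tested genes and 37.3% of protein-coding ones, and 34 were below, against 42.9% and 48.4%. With median-of-ratios scaling over all tested genes these counts were 44 and 31, and over protein-coding genes 46 and 26, so the balance between them depends on the scaling. Cox7b2 was the single gene with a 2-fold difference from the ES pair. It was higher, against 4.78% of all tested genes and 3.18% of protein-coding ones; 2-fold lower were none, against 4.05% and 2.56%.

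The largest differences upward after Cox7b2 were Cox7a1 (0.58 on the log2 scale), Ndufa11, a membrane-arm subunit of complex I (0.47), and Cox6c (0.40). Ndufa11 was at 6.7, 5.83, 7.2 and 9.05 FPKM, so the day 5 library was the highest of the 4. Ndufa12, an accessory subunit of the matrix arm, was at 73.8, 57.3, 54.1 and 85.1 FPKM, with a wide ES pair. The core subunit Ndufs7 was lowest at day 5, at 42.5, 41.6, 40.8 and 35.1 FPKM. The largest downward was that of Atp5s, a coupling factor of ATP synthase, at 2.78, 2.64, 2.41 and 1.64 FPKM (-0.49, limma adjusted p = 0.143). In the fit of the 7175 strand-clear genes the limma adjusted p of Atp5s was 0.0477, and it was the single gene of the 45 under 0.05 there, against 8.26% of those genes lower. Ndufs5 followed at -0.37, with the wide ES pair given above. All 4 large subunits of complex III were below both ES libraries, with a median of -0.11, and so were 3 of the 4 complex II genes. Among the small subunits of complex III, Uqcrq was at 237, 219, 224 and 190 FPKM and Uqcrh at 113, 99.8, 101 and 115 FPKM.

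The last comparison was between the day 2 and day 5 libraries, 1 against 1. Both differences from ES cells use the same ES pair. The limma test called 2 of 90 genes, Ndufb2 and Cox7b2, both higher in the day 5 library, against 7.88% of all tested genes called in either direction, 0.785% called higher and 7.1% called lower. Of the 12359 protein-coding genes in this test, 52 were called higher and 341 lower. Ndufb2 was 2.35 times as high in the day 5 library as in the day 2 library (log2 difference 1.20, SE 0.06, limma adjusted p = 0.0420). Ndufa1, Ndufb11 and Cox7b were also higher at a limma adjusted p under 0.05 but by less than 2-fold, at 0.66, 0.75 and 0.93 on the log2 scale. Ndufb3, another membrane-arm subunit, was at 16.1, 14.7, 9.76 and 19.9 FPKM but did not pass (limma adjusted p = 0.0805). So 5 of the 90 genes passed on p, all higher, against 1.54% higher and 8.47% lower over all tested genes. At an unadjusted p under 0.05 there were 27 higher and 7 lower, against 11.9% and 24.9%. In the fit of strand-clear genes 0 of 45 were called by limma, against 1.31% called higher and 3.11% called lower. The 90 genes had a median of 0.20, beside -0.08 for all tested genes.

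Isoform genes of complex IV are the members in which tissues are known to differ, and here the general isoform was the higher in each Cox family in all 4 libraries. Cox7b2, an isoform known from testis (chr5:71442824-71548205, minus strand), was at 1.09 and 1.04 FPKM in ES cells, 0.348 at day 2 and 2.61 in the day 5 library. Day 2 lay below the ES pair and day 5 above it, and the value in the day 2 library is near the level of 3 fragments, 0.303 FPKM. Between the derived libraries Cox7b2 differed by 1.42 on the log2 scale (SE 0.03, limma adjusted p = 0.0191), a scale that understates differences of low genes. Against ES cells its log2 difference was -0.61 in the day 2 library (limma adjusted p = 0.0446) and 0.81 in the day 5 library (limma adjusted p = 0.139). As a share of Cox7b and Cox7b2 together it was 0.657% and 0.615% in ES cells, 0.376% at day 2 and 1.46% in the day 5 library.

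Cox7a1, the heart and skeletal muscle isoform of Cox7a (chr7:30184144-30186078, plus strand), followed the same order of libraries at 4.14, 3.54, 1.38 and 6.24 FPKM. Its log2 difference in the day 2 library was -1.02 (SE 0.13, limma adjusted p = 0.0928). It was called lower in the fit of protein-coding genes alone (limma adjusted p = 0.0381). Its share of Cox7a1 and Cox7a2 together was 4.27%, 3.44%, 2.01% and 5.80%. Cox7a2, the general isoform, was at 92.8, 99.4, 67.6 and 101 FPKM, and Cox7a2l, which joins complexes III and IV in supercomplexes, at 43.8, 45.2, 37.4 and 38.4 FPKM. The 7 muscle markers summed to 4.33, 4.06, 6.15 and 1.29 FPKM, with the day 2 library highest and the day 5 library lowest. The high day 2 sum came from Acta1, the only tested marker of the 7, at 2.87, 2.52, 5.04 and 0.347 FPKM. Myh6, Myh7, Actc1 and Ckm were below both ES libraries in both derived libraries, and Tnnt2 was above both at day 2. Myl2 was listed at 0 throughout.

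Cox6b2, another isoform known from testis, was at 19.1, 18.7, 12.8 and 14.8 FPKM, below both ES libraries in both derived libraries. Its share of Cox6b1 and Cox6b2 together was 8.99%, 7.65%, 8.25% and 6.48%, with Cox6b1 at 194, 226, 142 and 213 FPKM. The 5 germ cell markers summed to 11.3, 12.0, 9.17 and 8.65 FPKM, and Tnp1 was listed at 0 in all libraries; their part in Cox6b2 and Cox7b2 was not tested. Cox4i2, an isoform known from lung, stayed between 0.202 and 0.343 FPKM beside Cox4i1. Cox6a2 and Cox8b, the muscle isoforms, were listed at 0 in all 4 libraries, beside Cox6a1 at 103, 95.2, 69.5 and 127 FPKM. Cox8c, known from testis, was listed at 0 in 3 libraries and at 0.134 FPKM in the day 5 library, under the level of 3 fragments of 0.245 FPKM.

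Ndufa4 carries a complex I name but is known as a subunit of complex IV. It was at 99.6, 110, 118 and 118 FPKM, above both ES libraries in both derived libraries. Ndufa4l2, its hypoxia-induced relative, was at 0.0398 and 0.0465 FPKM in ES cells, listed at 0 at day 2 and at 0.472 in the day 5 library, where the level of 3 fragments is 0.12 FPKM. The c-ring of ATP synthase is encoded by 3 genes with the same mature protein. Atp5g1 gave between 53.7% and 59.9% of their summed FPKM, Atp5g3 between 29.0% and 34.7% and Atp5g2 between 10.6% and 13.1%. The order of the 3 was the same in all libraries.

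**Figure D4:**
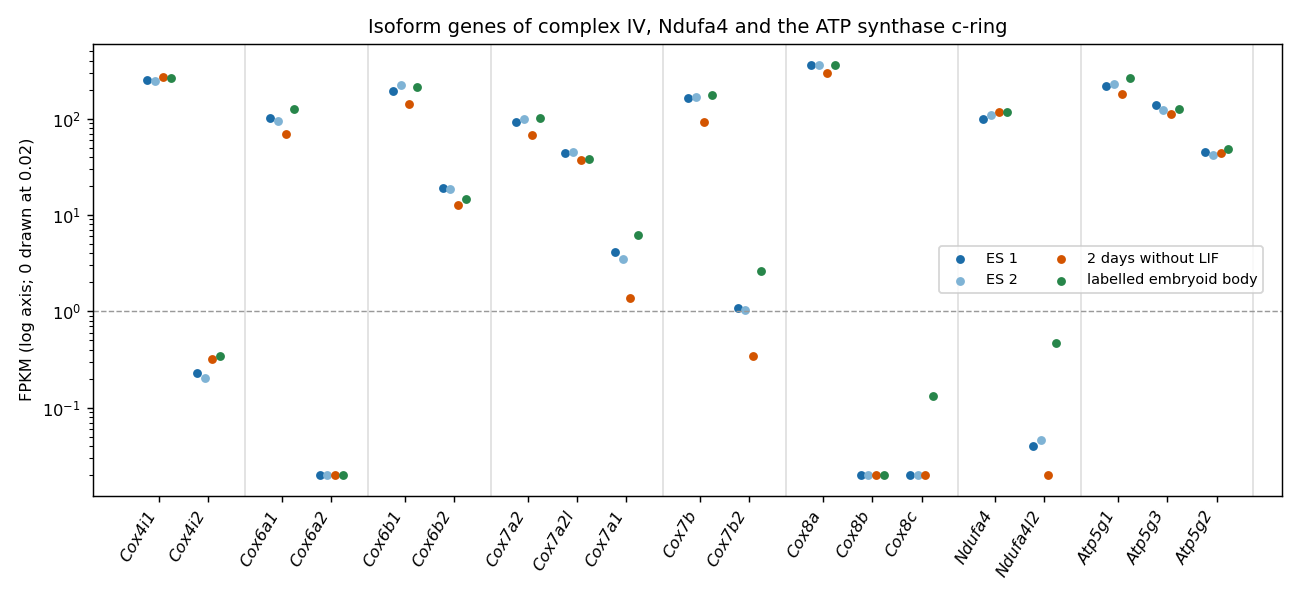
Level (FPKM, log axis, 0 drawn at 0.02) of the isoform genes of complex IV, Ndufa4 and the ATP synthase c-ring in the 4 libraries; each point is 1 library. The general isoforms of complex IV lie between 37.4 and 365 FPKM, and Cox7a1 and Cox7b2 are lowest at day 2 and highest in the day 5 library.

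Many of these genes have processed pseudogenes, copies of the mRNA elsewhere in the genome, whose reads can be hard to tell from those of the gene. In GENCODE, 128 pseudogenes resembled the mRNA of 47 of the 95 genes at 85% identity or more, with 18 of them for Cycs and 17 for Atp5l. The alignment had to be at least 150 nt and at least 50% as long as the coding sequence, but could include untranslated parts. The table held 103 of them, and 30 reached 1 FPKM in at least 1 library. Their sum was 411 FPKM in ES 1, 303 in ES 2, 278 at day 2 and 419 in the day 5 library, which is between 2.79% and 4.23% of the sum of the genes themselves. Of the 30, 22 were higher in ES 1 than in ES 2, 18 of them by at least 2-fold, and 0 were 2-fold higher in ES 2. No tested respiratory gene differed by 2-fold between these libraries, but levels were unlike. Only 18 pseudogenes reached 4 FPKM in a library, and the median of the 95 genes was 59.0 FPKM in ES 1. The pseudogene sums of ES 1 and day 5 were close, as were those of ES 2 and day 2. Above 0 were 37 in ES 1, 27 in ES 2, 31 at day 2 and 37 at day 5. The reason for this pairing of libraries was not tested.

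Gm6969, which resembles Cox7a2l at 97.7% identity, was at 173, 204, 161 and 182 FPKM, above Cox7a2l itself in every library. BC002163, which resembles Ndufs5, was at 33.8, 23.8, 29.9 and 28.5 FPKM, also above the gene. Gm12338, identical to Cox7c over 192 nt, was at 61.2 FPKM in ES 1, 18.9 in ES 2, 0 at day 2 and 48.7 in the day 5 library. The levels of Cox7a2l, Ndufs5, Cox7c and Ndufa12 are therefore uncertain to the extent that the counting split reads with these copies. Adding each gene's pseudogenes to it left the median difference in the day 2 library at -0.19, with 57 genes below and 23 above both ES libraries.

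**Figure D5:**
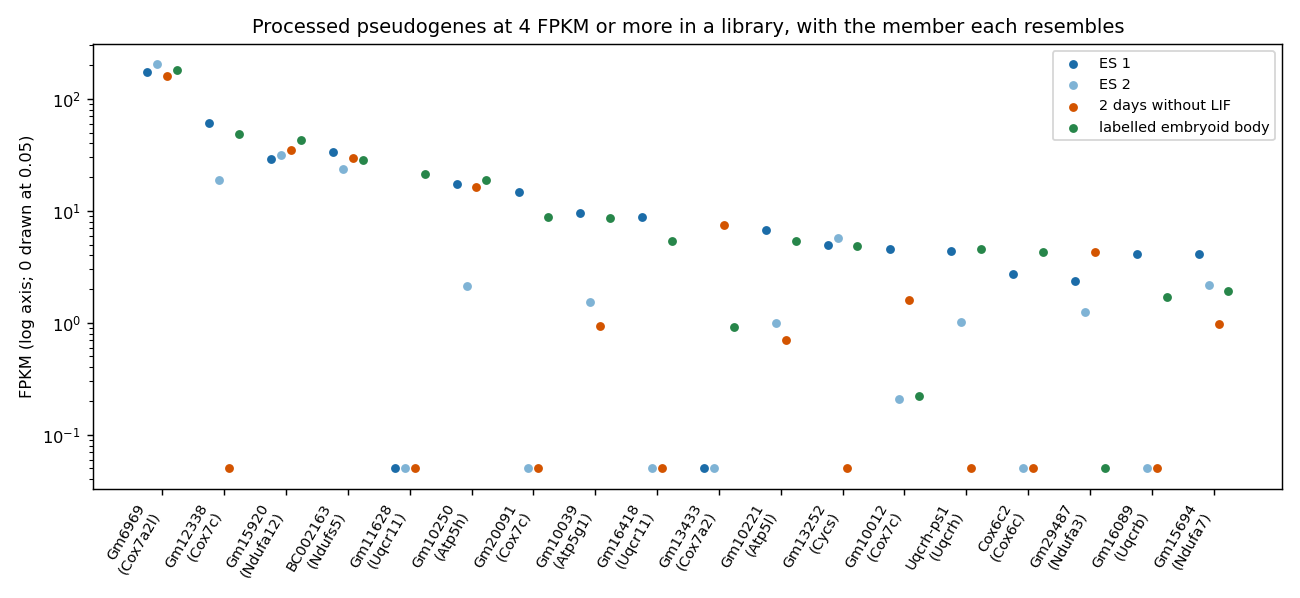
Level (FPKM, log axis, 0 drawn at 0.05) of the 18 pseudogenes that reached 4 FPKM in a library, with the respiratory gene each resembles in brackets; points are libraries. Gm6969 lies at 161 FPKM or above in all libraries, and Gm12338 lies at 61.2 and 48.7 FPKM in ES 1 and day 5, 18.9 FPKM in ES 2 and 0 in day 2.

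The rest of the respiratory system was read from lists chosen by function. Over all tested genes, the shares to set beside the counts are 48.4% above and 36.6% below both ES libraries at day 2, and 37.6% above and 42.9% below at day 5. At an unadjusted p under 0.05 they are 24.1% higher and 13.1% lower at day 2, and 12.5% higher and 15.2% lower at day 5. Of the 13 protein-coding genes of mitochondrial DNA, 12 were tested, and none was called by limma in either comparison with ES cells (2 higher and 0 lower at an unadjusted p under 0.05 in the day 2 library, 4 and 0 in the day 5 library). Their sum was 10665, 9911, 13807 and 16315 FPKM, led by mt-Co1, the catalytic subunit of complex IV, at 6188, 5941, 7990 and 8846 FPKM. The next gene, mt-Nd1 of complex I, was at 1382, 1239, 1104 and 2490 FPKM. At day 2, 5 of the 12 were above both ES libraries and 6 below, with a median log2 difference of -0.21, although the sum was higher. Of these mt-Nd6, a complex I subunit, was at 824, 708, 2219.9 and 1320.5 FPKM (log2 difference at day 2 1.54, limma adjusted p = 0.0834). In the day 5 library 10 of the 12 were above both ES libraries and none below, against 37.6% and 42.9% of all tested genes, while the nuclear genes of complex IV summed to 1.04 times the ES mean. Of the 12, 5 differed by 2-fold or more between ES 1 and ES 2, such as mt-Atp8 at 38.1 and 1.71 FPKM. The other genes with such a gap were mt-Nd4l, mt-Co2, mt-Co3 and mt-Atp6, all among the 6 below both ES libraries at day 2. In mt-Co3, at 13.5, 2.79, 2.78 and 14.3 FPKM, the day 2 value was close to ES 2. The count below and the median at day 2 thus rest largely on genes with a wide ES pair. The count above at day 5 also includes such genes, mt-Nd4l, mt-Co3 and mt-Atp6. They were at 10.6, 14.3 and 5.80 FPKM there, against 8.69, 13.5 and 4.51 in ES 1. The genes above both at day 5 without such a gap ranged from 1.38 (mt-Nd4) to 1.90 (mt-Nd1) times the ES mean. Above both at day 2 were mt-Nd4, mt-Nd5, mt-Nd6, mt-Cytb and mt-Co1.

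None of the 42 other assembly factors was called against ES cells by limma (3 higher and 7 lower at an unadjusted p under 0.05 in the day 2 library, 0 and 9 in the day 5 library). At day 2, 15 were above both ES libraries and 23 below, and at day 5, 6 and 26, with medians of -0.09 and -0.14 on the log2 scale. Cox20, an assembly factor of complex IV, had the largest difference of the list at day 2, in the other direction from the median, at 10.02, 12.9, 41.7 and 17.5 FPKM (log2 difference 1.79, limma adjusted p = 0.0915). Lrpprc, which stabilises mitochondrial mRNA, was at 61.9, 64.4, 74.3 and 56.4 FPKM, and Uqcc2, an assembly factor of complex III, at 79.4, 80.6, 76.6 and 83.1 FPKM. None of 23 tested genes for the transcription of respiratory genes was called (2 higher and 3 lower at an unadjusted p under 0.05 at day 2, 1 and 5 at day 5). Esrrb, a nuclear receptor of the pluripotency network, was at 159, 156, 114 and 175 FPKM and Pprc1, a coactivator of nuclear respiratory genes, at 130, 134, 132 and 120 FPKM. Nrf1, which binds the NRF1 letters, was at 64.9, 68.2, 56.6 and 53.1 FPKM, below both ES libraries in both derived libraries.

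None of 17 TCA cycle genes was called (3 higher and 4 lower at an unadjusted p under 0.05 at day 2, 0 and 7 at day 5). Below both ES libraries were 11 of them at day 2 and 15 at day 5, against 36.6% and 42.9% of all tested genes, with medians of -0.09 and -0.22 on the log2 scale. Cs, citrate synthase, was at 111, 118, 105 and 93.8 FPKM, and Mdh2, malate dehydrogenase, at 187, 206, 225 and 182 FPKM. None of 14 genes of the hypoxia response was called (2 higher and 3 lower at an unadjusted p under 0.05 at day 2, 1 and 2 at day 5). Pdk1, a kinase that holds back pyruvate oxidation, was at 112, 116, 115 and 97.6 FPKM, and Chchd2, a factor that binds the Cox4i2 promoter, at 176, 141, 147 and 181 FPKM. None of 9 genes tied to supercomplexes or ATP synthase was called (0 higher and 4 lower at an unadjusted p under 0.05 at day 2, 0 and 1 at day 5), and the most abundant were Usmg5, a small protein of ATP synthase, at 369, 429, 374 and 369.5 FPKM and Slc25a3, the phosphate carrier, at 320, 326, 281 and 283 FPKM.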

How the data were processed

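Total RNA of 4 mouse libraries was sequenced, and the authors deposited 1 FPKM value per gene and library. The submitters' processing notes name Trimmomatic 0.36, STAR, Cufflinks and the build mm10; of their options, the annotation release and the strand setting, none is given in the sources used here. FPKM scales with the library's total, so very abundant transcripts lower the values of the rest. Gene positions, types and coding lengths were taken from GENCODE mouse release 21 (47219 of 47633 identifiers matched when the version was dropped).

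The test covered the 15676 genes that reached 1 FPKM in some library. It used log2(FPKM + 1) in limma 3.58.1 under R 4.3.3, with all 4 libraries in a single model, a variance trend on mean expression and Benjamini-Hochberg adjustment. Depth was estimated from the smallest steps of FPKM times exon length. Lists are described by counts and medians, with no test. Pseudogenes were assigned with blastn, and Python 3.11.15 served for the rest. The steps were tested on simulated data. The members and lists were chosen with earlier results of these data known. Named in each complex were called genes, genes 2-fold from both ES libraries, the 2 highest and the lowest by level, the 2 largest differences each way, and the isoform families, and from the other lists the called genes or the 2 most abundant. Further names were chosen after their values were seen. The alternatives were another pseudocount, filter, scaling, variance setting and gene set, and each ES library left out.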

Additional observations from a re-analysis of the deposited data

Results flagged for a closer look

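Ndufb2 and Cox7b2 were the genes whose differences from ES cells differed between the derived libraries by limma's test of that difference together with a log2 size of at least 1; Ndufa1, Ndufb11 and Cox7b passed that test with smaller differences. The difference was 1.20 on the log2 scale for Ndufb2 (limma adjusted p = 0.0420), which was below the ES libraries in the day 2 library and level with them in the day 5 library. For Cox7b2 it was 1.42 (limma adjusted p = 0.0191), with values on opposite sides of the ES pair. Each derived group is 1 library.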

How the results depend on the processing

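No called gene changed direction under any alternative run, and reversal was looked for in called genes only. Small differences can change sign: that of Cycs at day 2 went from 0.12 to -0.03 (log2) with its pseudogenes added. With median-of-ratios scaling over all tested genes, 91 single-gene differences moved by more than the SD of the ES pair, and 179 kept their result. With scaling over protein-coding genes, 100 moved. The count of genes called in the day 2 library, 1, was 2 in the fit of protein-coding genes alone and 0 in that of strand-clear genes (at least 1000 nt of exons, no gene on the opposite strand), which holds 45 of the 90 genes. Between the derived libraries the count of 2 was 1 with a filter of 5 FPKM and 0 with strand-clear genes. The count at least 2-fold from ES cells, 3 lower in the day 2 library and 1 higher in the day 5 library, was 0 and 0 among strand-clear genes, and 0 in the latter with a filter of 5 FPKM. The strand-clear genes outside the ES pair were 38 in the day 2 library (10 above, 28 below) and 33 in the day 5 library (14 above, 19 below); these counts were chosen after seeing the data, and fewer genes were counted. Without 1 ES library the median in the day 2 library was between -0.23 and -0.16 and that of the day 5 library 0.01. All 90 genes then lie outside the single ES library: in the day 2 library 24 to 29 above and 61 to 66 below, and in the day 5 library 46 to 47 above and 43 to 44 below. The 2-fold counts were then 3 to 4 lower (Ndufaf3 without ES 1) and 1 higher. No paired analysis was possible because each derived group has 1 library. Without an ES library the limma test has no residual degrees of freedom and was not run. Depth limits Cox7b2 at day 2, Cox8c and Ndufa4l2, which lie near or under the level of 3 fragments in at least 1 library.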
